A study of Mus musculus with 16 samples.

Results

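The genes described here are 45 genes of DNA replication and nucleotide supply, taken by symbol from a list and matched to the Ensembl identifiers of the deposited count tables, which hold 22375 genes. All 45 were found and all 45 passed the filter on low counts, as did 15758 genes in all. They were measured by strand-specific RNA-Seq of total RNA from mouse embryonic stem (ES) cells after removal of ribosomal RNA. The cells, of strain 129/OLA and grown on gelatin with serum and LIF, were either wild type (WT, the E14Tg2a line) or Cfp1 -/- (here Cfp1-/-), which lack Cfp1, a CpG-binding subunit of the Set1 histone H3K4 methyltransferase encoded by Cxxc1. Each line was left untreated or given doxorubicin, a topoisomerase II poison and DNA intercalator that breaks DNA, for 6 hours at 1 μM by the treatment protocol (the treatment label of the samples gives 1 mM). There were 2 biological replicates in each of the 4 groups, each sequenced in 2 technical runs that were summed. Since each genotype was 1 cell line, an effect of losing Cfp1 and other differences between the lines cannot be told apart.

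Cells copy their DNA in S phase. Before S phase, the origin recognition complex (ORC), Cdc6 and Cdt1 load the MCM helicase onto origins, and geminin (Gmnn) later binds Cdt1 so that no origin is loaded again. The kinase Cdc7 with its activator Dbf4, together with Mcm10, Cdc45 and the GINS complex, then turns the loaded helicase into a moving fork, where polymerase alpha with primase starts each strand, polymerases delta and epsilon extend it, PCNA and its loader RFC hold the polymerases on DNA, RPA coats the single strand, and Fen1 and ligase 1 (Lig1) join the lagging fragments. Ribonucleotide reductase, thymidylate synthase and thymidine kinase supply the deoxynucleotides, and CAF-1 places histones on the new DNA. Many of these genes are textbook targets of E2F transcription factors, and mouse ES cells, which have a short G1 phase, spend much of their cycle in S phase.

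The libraries held between 14880589 and 29422711 counts. Cxxc1 stood at 807 to 1199 normalized counts in the 4 WT libraries and at 0.964 to 5.11 in the 4 Cfp1-/- libraries. The summed level of 8 ES cell markers was 46793 to 69526 normalized counts in untreated cells and 19947 to 31244 in treated cells. The 5 markers of primitive endoderm summed to 121 to 411 in any library, and 4 of trophoblast to 174 to 316 in untreated and 250.2 to 450 in treated cells. The 6 fibroblast markers summed to 237 and 222 in untreated and 512 and 359 in treated WT cells, and to 71.4 and 74.4 in untreated and 289 and 347 in treated Cfp1-/- cells. Of these, Col1a1 was at 5.07 to 90.9 in untreated and 201 to 365 in treated cells, Col3a1 was at 24.3 to 62 in WT and 0 to 1.02 in Cfp1-/- cells, and Lum was at 0 to 2.11 in every library. Thus the sum of the ES cell markers was lower and that of the fibroblast markers higher in treated cells. The fibroblast sum was also lower in untreated Cfp1-/- than in untreated WT cells. The fibroblast markers did not move together, as Col1a1 rose with treatment while Lum stayed near 0. The part of these differences in the results below was not tested. In bulk RNA, fewer cells in S phase and less RNA of these genes per cell cannot be told apart. In the second technical run of replicate 1 of treated Cfp1-/- cells, 439 of 529 genes with at least 200 counts in the first run stood at 0 on X, Y and the affected part of chromosome 19, against 0 of 7791 elsewhere (the damaged run). Pola1 (2300 counts in the first run, 0 in the second), Fen1 (1396 and 0) and Pola2 (779 and 1) lie there. Their log2 fold changes with doxorubicin in Cfp1-/- cells are therefore also given without that run, while their normalized counts below include it. Technical runs also disagreed in replicate 1 of treated WT cells. Divided by its degrees of freedom, the chi-square between the 2 runs was 9.61 there and 42.9 in the library with the damaged run. It was 0.998 to 1.05 in the other libraries. Both runs of the treated WT library were kept, and the cause of their disagreement was not tested.

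Promoter sequences of 37 of the 45 genes were found in a RefSeq table (250 bases before to 50 after the start), 45 in all since several genes have more than one start, and each was placed on the genome build of the count tables (NCBIM37, mm9) by an exact match. An E2F site, searched as TTTCCCGC, TTTGGCGC, TTTCGCGC or TTTGCCGC on both strands, was present in 13 of the 37 (35.1%), against 704 of 27025 genes with a promoter in the table (2.61%) and 466 of 10848 such genes that were tested here (4.30%). The promoters of 5 members are shown, from the minus strand except Rrm2, with E2F sites in capitals: Mcm6, the member with the most matches, Mcm3, the member of highest level, Orc3, with the largest fall in WT cells among members that hold a site, and Dbf4 and Rrm2, the largest fall and the rise with doxorubicin, which hold no match. Their positions are chr1:130256233-130256532 (Mcm6), chr1:20810344-20810643 (Mcm3), chr4:34562142-34562441 (Orc3), chr5:8422667-8422966 (Dbf4) and, on the plus strand, chr12:25392869-25393168 (Rrm2).
Mcm6: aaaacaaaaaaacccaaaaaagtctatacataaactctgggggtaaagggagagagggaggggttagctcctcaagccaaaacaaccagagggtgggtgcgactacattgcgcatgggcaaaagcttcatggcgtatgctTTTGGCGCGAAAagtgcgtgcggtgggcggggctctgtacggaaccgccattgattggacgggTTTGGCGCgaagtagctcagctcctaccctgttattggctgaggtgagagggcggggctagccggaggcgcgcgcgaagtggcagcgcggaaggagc
Mcm3: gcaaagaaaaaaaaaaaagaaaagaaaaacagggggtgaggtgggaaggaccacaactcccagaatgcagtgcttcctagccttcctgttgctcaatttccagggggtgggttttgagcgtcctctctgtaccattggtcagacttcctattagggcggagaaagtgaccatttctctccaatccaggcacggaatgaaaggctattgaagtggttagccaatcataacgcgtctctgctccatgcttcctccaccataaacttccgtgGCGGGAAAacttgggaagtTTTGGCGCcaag
Orc3: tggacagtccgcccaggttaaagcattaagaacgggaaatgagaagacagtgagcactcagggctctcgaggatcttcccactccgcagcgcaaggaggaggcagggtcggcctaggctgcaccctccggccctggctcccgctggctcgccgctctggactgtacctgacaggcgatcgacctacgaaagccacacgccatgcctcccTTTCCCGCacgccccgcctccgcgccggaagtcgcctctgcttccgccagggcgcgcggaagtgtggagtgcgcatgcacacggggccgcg
Dbf4: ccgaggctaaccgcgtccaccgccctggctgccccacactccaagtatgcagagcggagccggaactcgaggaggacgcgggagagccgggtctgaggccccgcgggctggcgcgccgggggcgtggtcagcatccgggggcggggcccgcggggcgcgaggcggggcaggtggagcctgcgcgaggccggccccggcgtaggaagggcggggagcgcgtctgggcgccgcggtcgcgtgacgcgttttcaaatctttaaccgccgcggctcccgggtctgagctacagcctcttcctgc
Rrm2: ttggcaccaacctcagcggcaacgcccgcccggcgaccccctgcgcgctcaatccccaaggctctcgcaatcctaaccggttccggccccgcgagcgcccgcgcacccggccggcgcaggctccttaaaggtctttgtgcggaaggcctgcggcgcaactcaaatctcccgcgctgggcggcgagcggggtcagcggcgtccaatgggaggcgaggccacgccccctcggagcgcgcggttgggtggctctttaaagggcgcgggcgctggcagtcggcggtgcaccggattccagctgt

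In Mcm6, 2 of the 3 matches overlap, as TTTGGCGC on one strand and GCGCGAAA (TTTCGCGC read on the other) share 4 bases. The other members with a match were Cdc6, Cdt1, Gins3, Lig1, Mcm5, Mcm7, Orc1, Pola1, Pold1 and Rfc3. A CCAAT box (CCAAT, both strands) was present in 22 of the 37 (59.5%, against 41.1% of genes in the table and 42.9% of those tested). The cell cycle homology region letters (TTTGAA or TTCGAA) were in 8 (21.6%, against 21.7% and 16.2%) and TATAAA in 2 (5.41%, against 15.7% and 9.36%). These are matches of letters in a fixed window and say nothing of binding. The median doxorubicin response in WT cells was -0.45 on the log2 scale both for the 13 members with an E2F match and for the 24 without, and between untreated lines both medians were -0.35. In Cfp1-/- cells the median response was -0.58 with a match, where 10 of 13 were called lower, and -0.48 without, where 15 of 24 were. In WT cells 7 of 13 and 15 of 24 were called lower. Of all genes tested, 21.8% were called lower in WT and 21% in Cfp1-/- cells. These are descriptions, and the difference between members with and without a match was not tested.

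In untreated WT cells the members spanned a 30.2-fold range of level per kb of exon, the scale on which levels of different genes are compared here (normalized count divided by the length of the union of a gene's exons). The 6 MCM genes, which encode a ring with 1 copy of each subunit, were among the most abundant and lay close together, from 2415 normalized counts per kb for Mcm6 to 3681 for Mcm3, the highest of all members. Pcna (2654), Gmnn (2660.3) and Orc2 (2546) were at a similar level, and the replicates of Mcm4, Pcna and Gmnn overlapped. Within ORC, levels per kb ran from 437 for Orc1, the subunit that completes the complex, to 2546 for Orc2. Within GINS they ran from 187 for Gins2 to 1585 for Gins4. Tk1, which salvages thymidine, was lowest with 122. Spearman's rho between level per kb and the WT response over the 45 members was -0.37 (Pearson's r -0.29), given as a description, since the members share libraries. The untreated WT libraries also enter both values, which can by itself push rho below 0.

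**Figure D1:**
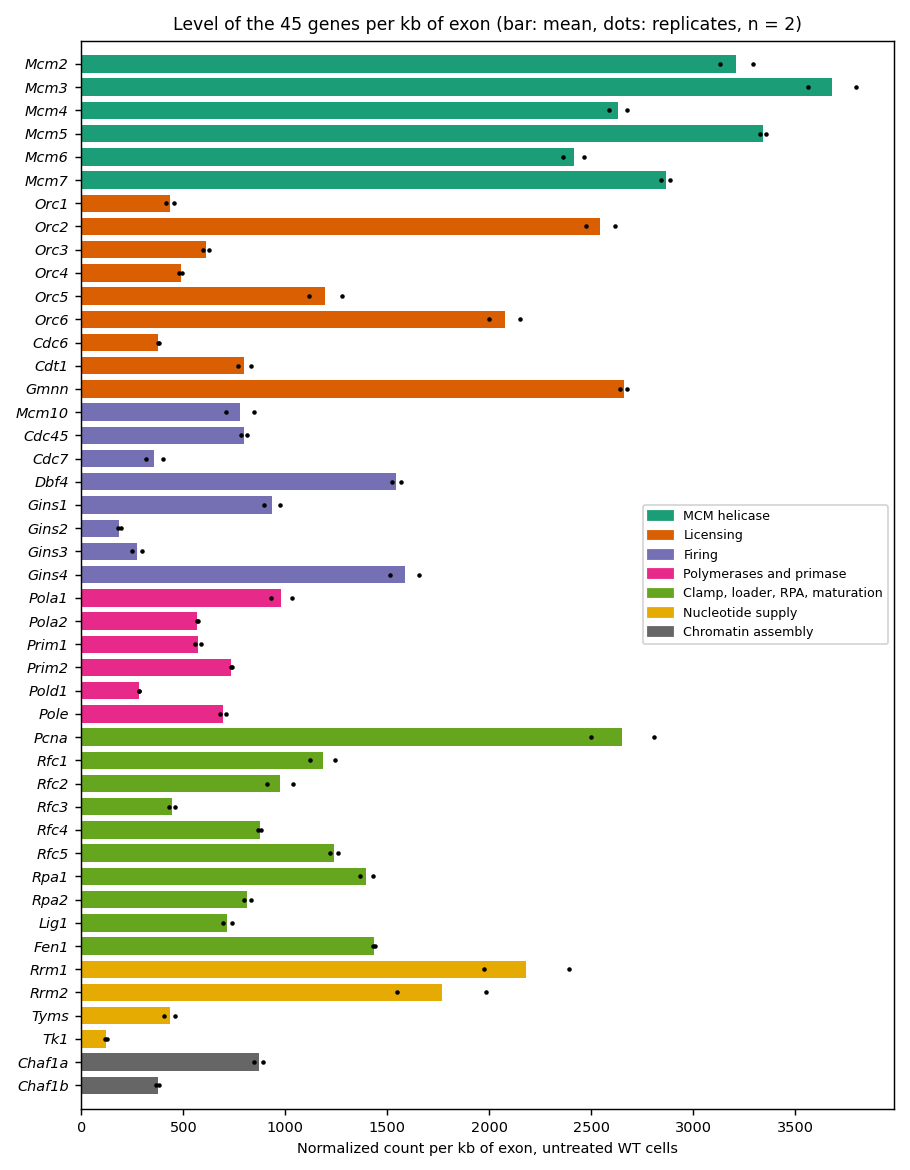
Normalized count per kb of exon (x axis) of each of the 45 genes (y axis) in untreated WT cells, coloured by role; bars are means and dots the 2 replicates. The MCM genes lie in the upper part of the range, where Gmnn, Pcna and Orc2 have similar levels, and Tk1 is lowest.

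The comparison of treated with untreated WT cells asks how the replication genes respond to DNA damage. In WT cells 25 of the 45 members fell and 1, Rrm2, rose (edgeR quasi-likelihood test, adjusted p under 0.05 over 15758 genes), while 21.8% of all genes tested were called lower and 26.5% higher. The median log2 fold change of the members was -0.45, and that of all genes 0.06. Both treated libraries were below both untreated libraries for 35 members (36% of all genes), and above them for 5 (37.5% of all genes). Without replicate 2 of untreated WT cells the 25 became 16. Whichever of the 8 libraries was left out, 12 kept their call (Mcm5, Orc2, Orc3, Gmnn, Dbf4, Gins1, Pola1, Pold1, Rfc1, Rfc4, Rfc5 and Rpa1), and the other 14 of the 26 called, Rrm2 among them, lost it without at least 1 library. A stricter call, which also asked for a change of 2.5-fold or more and, on average, no fewer than 200 normalized counts, was met by Dbf4 alone among the lower members (2.8% of all genes). With total counts as library sizes, the median of all genes moved to 0.37 and that of the members to -0.14, so that 7 members were called lower (Orc2, Orc3, Gmnn, Dbf4, Pold1, Rfc4 and Rpa1) and 6 higher (Orc4, Gins3, Rfc2, Rrm2, Tyms and Chaf1a). Total counts called 7567 of the 15758 genes in either direction, against 7607 with the scaling used above. The distance of the members' median from that of all genes was -0.51 under either scaling. Since a change of library sizes moves all genes nearly alike, this distance could hardly differ and is no test of the scaling. The falls below are relative to the other genes of a library.

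In Cfp1-/- cells 29 members fell and, again, Rrm2 alone rose, against 21% and 27.8% of all genes. The median was -0.48 (0.01 over all genes), 39 members had both treated libraries below both untreated ones (38.7% of all genes) and Dbf4 alone met the stricter call (2.23% of all genes). With total counts the median of all genes was 0.23, that of the members -0.27, and 15 members were called lower and 3 higher (Orc4, Rrm2 and Tyms). Of the 15758 genes, 7328 were then called in either direction, against 7692 otherwise. The call was kept whichever library was left out by 17 members (Mcm3, Mcm5, Mcm6, Orc3, Orc5, Orc6, Cdt1, Gmnn, Mcm10, Cdc45, Dbf4, Pola1, Pold1, Pcna, Rfc4, Rpa1 and Rpa2), and 13, Rrm2 among them, lost it without at least 1. There were 23 members that fell in both lines and 13 that passed the test in neither. Over all genes tested, 2569 of 15758 fell in both lines and 6429 passed the test in neither. No sample is shared between the responses of the lines. Over the 45 members Pearson's r between them was 0.85 and Spearman's rho 0.76. No such value is given over all genes, so neither is shown to be particular to the members.

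**Figure D2:**
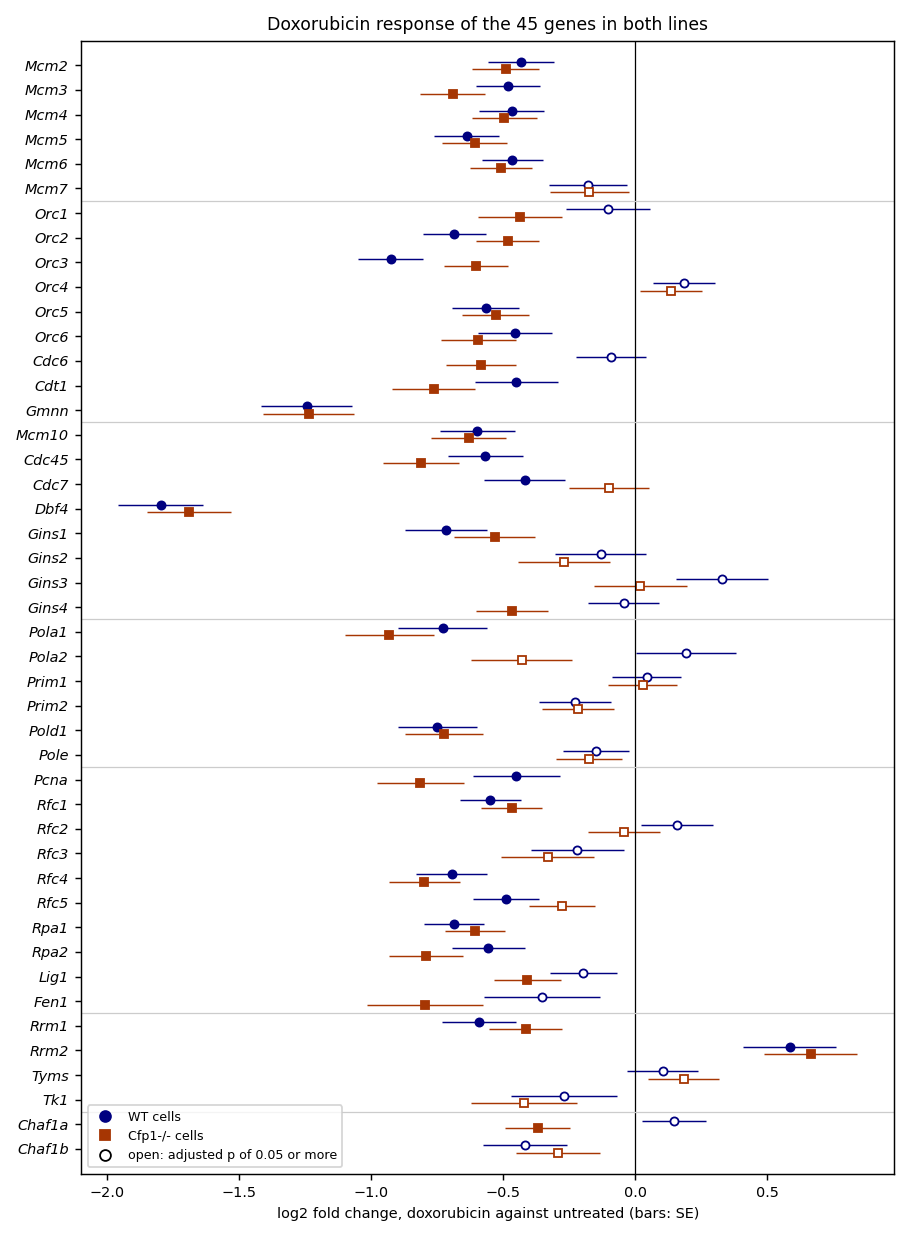
log2 fold change of doxorubicin against untreated cells (x axis) with its SE for each of the 45 genes (y axis), in WT (circles) and Cfp1-/- cells (squares), filled where the adjusted p is under 0.05; grey lines separate the roles. Dbf4 and Gmnn lie furthest to the left in both lines and the points of Rrm2 are the filled ones to the right of 0.

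Of the genes that fire origins, 5 of 8 fell in WT cells and 5 of 8 in Cfp1-/- cells. Beside this and the counts by role below, 21.8% of all genes fell in WT and 21% in Cfp1-/- cells. Dbf4, the activating subunit of the Cdc7 kinase (ENSMUSG00000002297, chr5:8396973-8422716, minus strand), fell the most of all members: it stood at 10301 and 9999 normalized counts in untreated and 2647 and 3007 in treated WT cells, and at 6937 and 6799 in untreated and 2374 and 1759 in treated Cfp1-/- cells. Treated and untreated libraries were far apart in each line, a 3.48-fold fall in WT cells (log2 -1.80 ± 0.16, SE, n = 2; adjusted p = 2.63e-05) and a 3.22-fold fall in Cfp1-/- cells (-1.69 ± 0.16; adjusted p = 3.95e-05). Its partner kinase Cdc7 changed less, from 1311 and 1652 to 1014 and 1131 in WT cells (log2 -0.42 ± 0.15; adjusted p = 0.0452, a call lost when any 1 of 7 of the 8 libraries was left out), and its change in Cfp1-/- cells, -0.10 ± 0.15, did not pass the test. Mcm10, which links the helicase to polymerase alpha, fell by 0.60 and 0.63 on the log2 scale in WT and Cfp1-/- cells, and Cdc45, which rides with the helicase, fell by 0.57 and 0.81. The 4 GINS genes did not move as a block. Gins1 fell in both lines (log2 -0.72 ± 0.15 and -0.53 ± 0.15, the latter -0.41 and not called without the damaged run, adjusted p = 0.0671), Gins4 in Cfp1-/- cells (-0.47 ± 0.14; -0.04 ± 0.14 in WT), and Gins2 and Gins3 in neither.

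Of the genes that license origins, 6 of 9 fell in WT cells and 8 of 9 in Cfp1-/- cells. Gmnn, the inhibitor of Cdt1 (ENSMUSG00000006715, chr13:24843714-24853792, minus strand), stood at 3144 and 3183 normalized counts in untreated and 1089 and 1495 in treated WT cells, and at 2306 and 2853 in untreated and 1096 and 1029 in treated Cfp1-/- cells. The groups did not overlap, and the fall was 2.37-fold in WT (log2 -1.24 ± 0.17; adjusted p = 0.000318) and 2.36-fold in Cfp1-/- cells (adjusted p = 0.000356). Its target Cdt1, a loading factor, stood at 1816 and 1685 in untreated and 1334 and 1149 in treated WT cells, and at 1243 and 1138 in untreated and 754 and 608 in treated Cfp1-/- cells. Treated libraries were below untreated ones in each line, with log2 fold changes of -0.45 ± 0.16 (adjusted p = 0.037) and -0.76 ± 0.16 (adjusted p = 0.00318). The WT call of Cdt1 was lost without either untreated WT library or replicate 2 of treated WT cells (adjusted p up to 0.174).

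Orc3, a core ORC subunit (ENSMUSG00000040044, chr4:34518045-34562193, minus strand), stood at 3633 and 3802 in untreated and 1839 and 1948 in treated WT cells, and at 3123 and 3215 in untreated and 1883 and 2167 in treated Cfp1-/- cells. It fell in both lines without overlap, by 1.9-fold in WT (log2 -0.93 ± 0.12; adjusted p = 0.000249) and 1.52-fold in Cfp1-/- cells (-0.60 ± 0.12; adjusted p = 0.00285). Orc2, Orc5 and Orc6 also fell in both lines (by 0.46 to 0.69 on the log2 scale), Orc1 fell in Cfp1-/- cells (-0.44 ± 0.16; -0.10 ± 0.16 in WT), and Orc4 did not pass the test in either line (0.18 ± 0.12 and 0.14 ± 0.12). Cdc6, the loading ATPase, stood at 1985 and 1970.2 in untreated and 1797 and 1793 in treated WT cells, and at 1876 and 1999.5 in untreated and 1368 and 1141 in treated Cfp1-/- cells. The WT libraries differed little (log2 -0.09 ± 0.13; adjusted p = 0.59), whereas in Cfp1-/- cells it fell 1.5-fold (adjusted p = 0.00547).

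**Figure D3:**
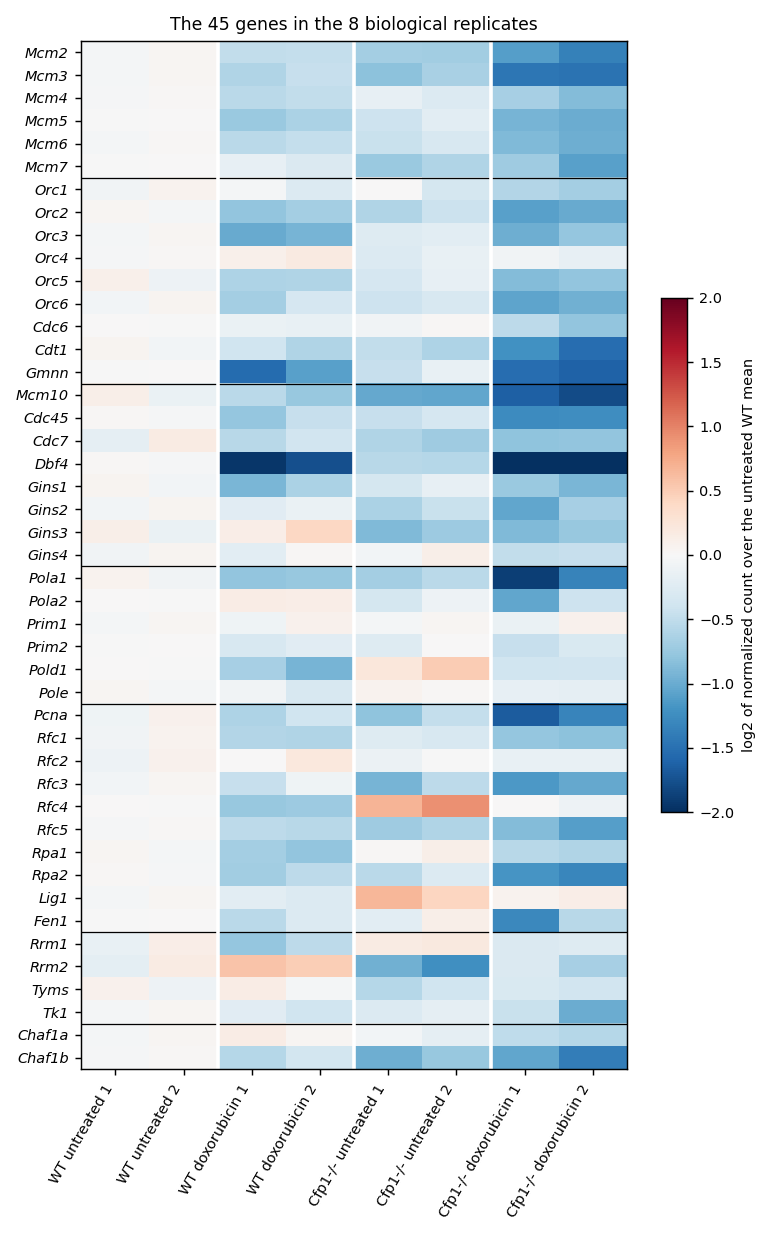
log2 of the normalized count over the mean of untreated WT cells (colour, blue lower and red higher) for the 45 genes (rows, by role) in the 8 biological replicates (columns). Treated columns are bluer than untreated ones in most rows, and Rrm2 runs the other way.

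Of the helicase genes, 5 of 6 fell in each line, by 0.43 to 0.64 in WT and 0.49 to 0.69 in Cfp1-/- cells on the log2 scale. Mcm2 stood at 10556 and 11093 normalized counts in untreated and 7727 and 7791 in treated WT cells, and at 6738 and 6699 in untreated and 5023 and 4254 in treated Cfp1-/- cells. The groups did not overlap, with log2 fold changes of -0.43 ± 0.13 (adjusted p = 0.0169) and -0.49 ± 0.13 (adjusted p = 0.00945). The WT call of Mcm2 was lost without any 1 of the 4 WT libraries (adjusted p up to 0.0829), and the Cfp1-/- call without replicate 2 of treated Cfp1-/- cells (adjusted p = 0.0741). Mcm3 stood at 10662 and 11358 in untreated and 7240.0 and 8028 in treated WT cells, and at 6267 and 7024 in untreated and 4045 and 3942 in treated Cfp1-/- cells (log2 -0.48 ± 0.12 and -0.69 ± 0.12). Mcm7 was the exception, with log2 fold changes of -0.18 ± 0.15 and -0.17 ± 0.15 that did not pass the test (adjusted p = 0.346 and 0.364).

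Of the 6 polymerase and primase genes, Pola1 and Pold1 fell in both lines and no other passed the test. Pola1, the catalytic subunit of polymerase alpha (chromosome X), stood at 9092 and 8185 in untreated and 5003 and 5093 in treated WT cells, and at 5390.1 and 5919 in untreated and 2349 and 3409 in treated Cfp1-/- cells, the lower of the last pair being the library with the damaged run. It fell in WT (log2 -0.73 ± 0.17; adjusted p = 0.00575) and in Cfp1-/- cells (-0.93 ± 0.17; adjusted p = 0.00156), and without the damaged run the fall in Cfp1-/- cells was -0.65 (adjusted p = 0.0013). Its accessory subunit Pola2 (chromosome 19) stood at 1639 and 1629 in untreated and 1818 and 1798 in treated WT cells, and at 1279 and 1529.7 in untreated and 797 and 1229 in treated Cfp1-/- cells. Neither change passed the test (log2 0.19 ± 0.19 and -0.43 ± 0.19, the latter -0.16 without the damaged run and called lower with the replicate number as a block, adjusted p = 0.0311). The primase genes Prim1 and Prim2 and the polymerase epsilon gene Pole did not pass, with log2 fold changes from -0.23 to 0.04, whereas Pold1, the catalytic subunit of polymerase delta, fell by 0.75 and 0.72.

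Of the 10 genes for the clamp, its loader, RPA and fragment maturation, 6 fell in WT and 7 in Cfp1-/- cells. Pcna, the sliding clamp, stood at 6003 and 6735 in untreated and 4172 and 4854 in treated WT cells, and at 3661 and 4586 in untreated and 2002 and 2553 in treated Cfp1-/- cells. The groups did not overlap in either line (log2 -0.45 ± 0.16, adjusted p = 0.0445, and -0.81 ± 0.16, adjusted p = 0.00286). The WT call of Pcna was lost without either untreated WT library or replicate 1 of treated WT cells (adjusted p up to 0.194), and with total counts its log2 fold change in WT cells was -0.14 (adjusted p = 0.54). The 5 clamp loader genes split: Rfc1 and Rfc4 fell in both lines, Rfc5 in WT cells (and in Cfp1-/- cells without the damaged run, adjusted p = 0.0227), and Rfc2 and Rfc3 in neither. The RPA genes Rpa1 and Rpa2 fell in both, by 0.56 to 0.79 on the log2 scale.

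Fen1, the flap nuclease (chromosome 19), stood at 3468 and 3488 in untreated and 2383 and 2888 in treated WT cells, and at 2989 and 3789 in untreated and 1426 and 2366 in treated Cfp1-/- cells. It fell in Cfp1-/- cells (log2 -0.80 ± 0.22; adjusted p = 0.014, and -0.53 with adjusted p = 0.0131 without the damaged run), while -0.35 ± 0.22 in WT cells did not pass. Lig1 stood at 3369 and 3590.2 in untreated and 3002 and 2874 in treated WT cells, and at 5499 and 4699 in untreated and 3635 and 3826 in treated Cfp1-/- cells. Its fall in Cfp1-/- cells (-0.41 ± 0.13; adjusted p = 0.0231) was not called without the damaged run (adjusted p = 0.0576), although Lig1 lies outside the damaged region. In the 2 chromatin assembly genes, Chaf1a fell in Cfp1-/- cells (-0.37 ± 0.12; adjusted p = 0.0313) and Chaf1b (-0.42 ± 0.16 in WT; adjusted p = 0.0532) did not, and was called lower in WT cells with the replicate number as a block (adjusted p = 0.0328) or without the damaged run (adjusted p = 0.0448).

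The 4 nucleotide supply genes did not move together. Rrm2, the small subunit of ribonucleotide reductase that is made in S phase (ENSMUSG00000020649, chr12:25393106-25399011, plus strand), stood at 4295 and 5499 normalized counts in untreated and 7300.2 and 6924 in treated WT cells, and at 2524 and 2098 in untreated and 4019 and 3091 in treated Cfp1-/- cells. Treated libraries were above untreated ones in each line, by 1.5-fold in WT (log2 0.58 ± 0.18; adjusted p = 0.0208) and 1.58-fold in Cfp1-/- cells (0.66 ± 0.18; adjusted p = 0.0118). The WT call was lost without replicate 1 of either untreated or treated WT cells, and the Cfp1-/- call without replicate 2 of untreated or replicate 1 of treated Cfp1-/- cells.

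Rrm1, the large subunit of the same enzyme (chromosome 7), went the other way, from 7887 and 9552 to 5124 and 6075 in WT cells and from 9801 and 9990.0 to 7112 and 7307 in Cfp1-/- cells. Treated libraries were below untreated ones, with log2 fold changes of -0.59 ± 0.14 (adjusted p = 0.00624) and -0.41 ± 0.14 (adjusted p = 0.0319). The WT call of Rrm1 was lost without replicate 2 of untreated WT cells (adjusted p = 0.0575) and the Cfp1-/- call without any 1 of the 4 Cfp1-/- libraries (adjusted p up to 0.0993). Tyms, thymidylate synthase, stood at 2811 and 2459 in untreated and 2926 and 2558 in treated WT cells, and at 1774 and 2007 in untreated and 2138 and 2027 in treated Cfp1-/- cells. The WT groups overlapped and neither line passed the test (0.10 ± 0.14 and 0.18 ± 0.14), though with total counts both were called higher. Tk1 stood at 615 and 653 in untreated and 539.7 and 478 in treated WT cells, and at 522 and 559 in untreated and 464 and 319 in treated Cfp1-/- cells, and its changes (-0.27 ± 0.20 and -0.42 ± 0.20) did not pass, except in Cfp1-/- cells without the damaged run (adjusted p = 0.0314).

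**Figure D4:**
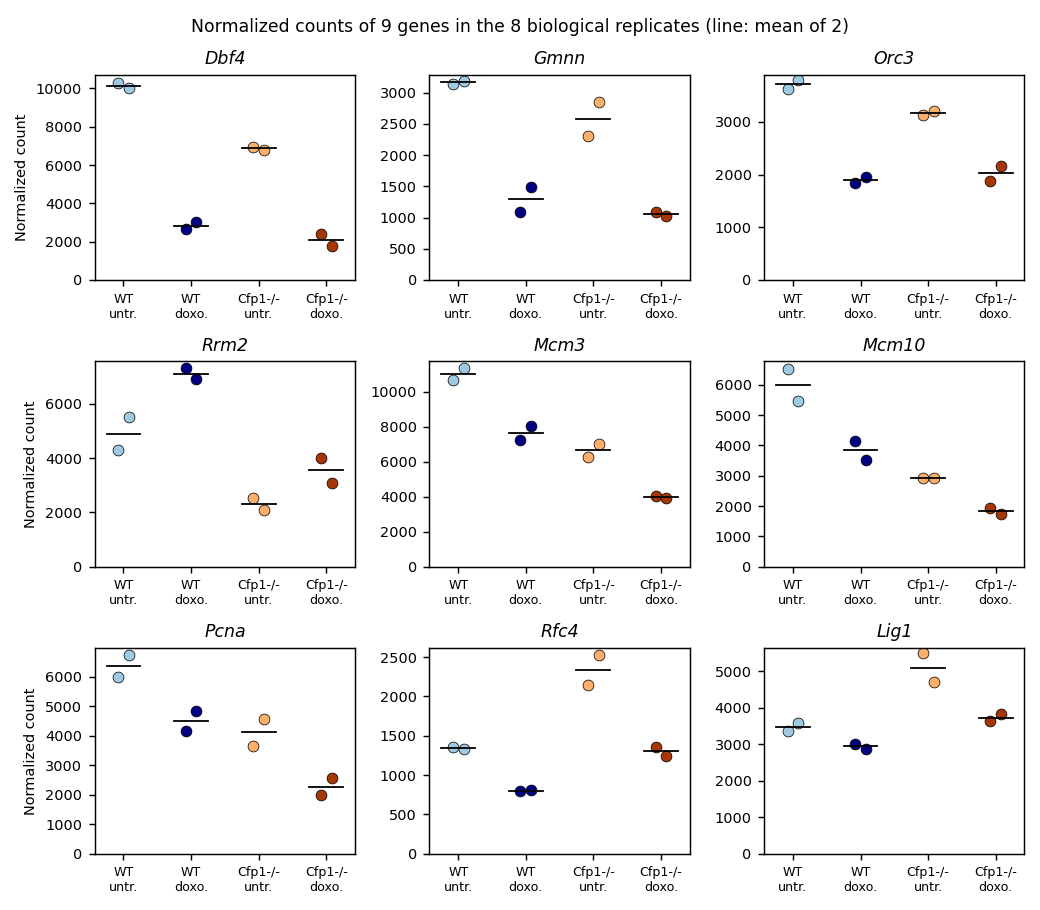
Normalized counts (y axis, from 0) of 9 genes in the 8 biological replicates by group (x axis); points are replicates and lines their means. Dbf4, Gmnn and Orc3 drop with doxorubicin in both lines, Rrm2 rises from a lower level in Cfp1-/- cells, and Rfc4 and Lig1 are higher in untreated Cfp1-/- than in untreated WT cells.

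The difference between the responses of the lines asks whether the loss of Cfp1 altered the change with doxorubicin. No member passed the test of the difference (0 of 45, against 0.121% of all genes lower and 0.114% higher), nor did any in DESeq2's Wald test or with the replicate number as a block. At an unadjusted p under 0.05 there were 3, each with a more negative value in Cfp1-/- than in WT cells, where Chaf1a was at 0.15 ± 0.12, Cdc6 at -0.09 ± 0.13 and Pola2 at 0.19 ± 0.19 and none passed the test. They were Chaf1a (log2 difference -0.52 ± 0.17; adjusted p = 0.325), Cdc6 (-0.49 ± 0.19; adjusted p = 0.406) and Pola2 (-0.62 ± 0.27; adjusted p = 0.454, with a difference of -0.35 without the damaged run). Over all genes, 1671 of 15758 were below that unadjusted p. The differences ran from -0.62 to 0.32 over the members, with SE of 0.16 to 0.31, so that a member called in 1 line alone, such as Cdc7, Orc1, Cdc6 or Gins4, was not shown to respond differently.

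The comparison of the untreated lines asks whether the replication genes differed before treatment. In untreated Cfp1-/- cells 18 members were lower and 2 higher than in WT cells, against 16.1% and 17.9% of all genes, with a median of -0.27 (0.01 over all genes). With total counts the median of all genes was 0.20, that of the members -0.07, and 8 members were called lower and 4 higher (Pold1, Rfc4, Lig1 and Rrm1). Of the 15758 genes, 5459 were then called in either direction, against 5362 otherwise. Without any 1 of the untreated libraries, fewer members were called lower and fewer of all genes were called. The median of the members was then -0.28 without either replicate of untreated WT cells. It was -0.23 without replicate 1 and -0.38 without replicate 2 of untreated Cfp1-/- cells. After doxorubicin 20 members were lower and 1 higher in Cfp1-/- cells, against 10.8% and 15.1% of all genes, with a median of -0.40 (0.02 over all genes). With total counts the median of all genes was 0.11, and 16 members were called lower and 4 higher (4079 of all genes in either direction, against 4074 otherwise). With the replicate number as a block, 25 were lower and 4 higher (Rfc4, Pold1, Lig1 and Rrm1). All genes called in either direction rose as well, to 5795 from 4074. Without any 1 of the treated libraries, fewer members were called lower and fewer of all genes were called. The median of the members was then -0.33 without replicate 2 of treated WT or of treated Cfp1-/- cells. It was -0.43 without replicate 1 of treated WT and -0.45 without replicate 1 of treated Cfp1-/- cells. There were 14 members lower in both comparisons, which share no library, and 1237 of 15758 genes in all. Whichever library was left out, 8 of the 20 called untreated kept their call (Mcm2, Mcm3, Mcm10, Rfc4, Rfc5, Lig1, Rrm2 and Chaf1b), as did 9 of the 21 called after doxorubicin (Mcm2, Mcm3, Cdt1, Mcm10, Gins3, Pola1, Pcna, Rfc4 and Rrm2).

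The lines also differed by chromosome. The median log2 fold change of Cfp1-/- against WT in untreated cells was 0.53 over 1283 genes on chromosome 7, 0.51 over 1279 on chromosome 11, 0.29 over 541 on chromosome 19 and -0.23 over 823 on chromosome 8, and lay within 0.2 of 0 on the other autosomes and X. Of the 45 members, 14 lie on those 4 chromosomes. Among the other 31, 15 were lower and 1 higher in untreated cells (median -0.37), and 14 lower and 1 higher in treated cells (median -0.40). Most of the other autosomes had untreated medians below 0, from -0.18 on chromosome 18 to 0.04 on chromosome 14. The share of all genes called on these chromosomes alone was not counted, so the counts among the 31 have no matched background. The 4 chromosomes were chosen by the untreated medians. In treated cells the medians were 0.47, 0.51, -0.008 and -0.25 on chromosomes 7, 11, 19 and 8. That of X, which holds Pola1 among the 31, was -0.24, so the treated count was not freed of shifted chromosomes. Chromosome 19 and X hold genes that lost counts in the damaged run. The part of the chromosome differences in the remaining calls was not tested.

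**Figure D5:**
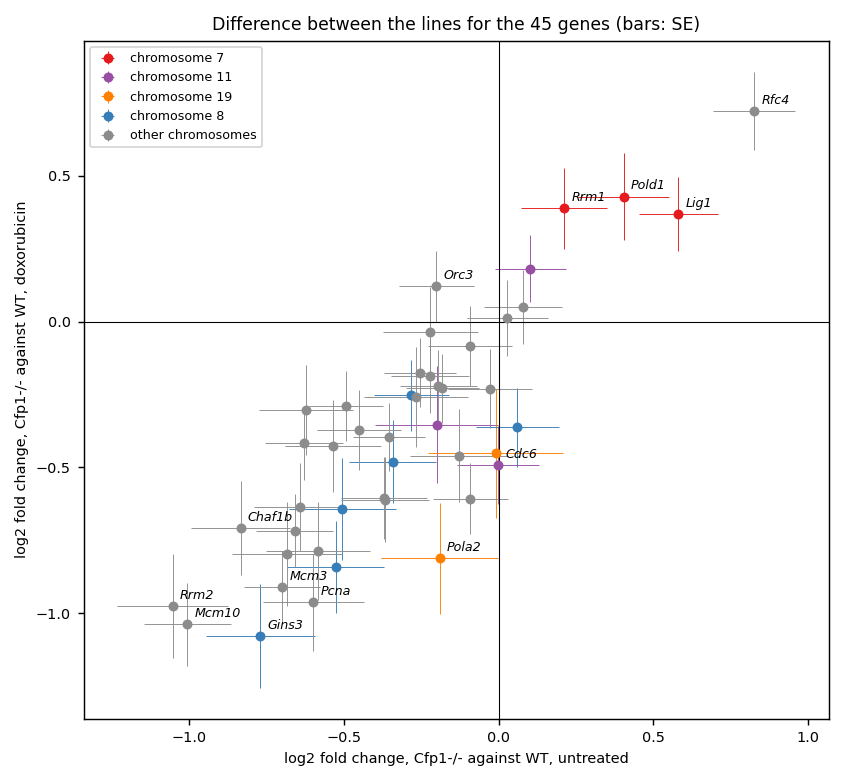
log2 fold change of Cfp1-/- against WT cells for the 45 genes, untreated (x axis) and after doxorubicin (y axis), with SE bars, coloured by chromosome. Most points lie in the lower left, and of the 4 named points in the upper right Rrm1, Pold1 and Lig1 lie on chromosome 7 while Rfc4 does not.

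In untreated cells the largest differences between the lines were in Rrm2 and Mcm10. From the values given above for Rrm2, each Cfp1-/- library was below each WT library of the same treatment, 2.08-fold lower untreated (log2 -1.05 ± 0.18; adjusted p = 0.00224) and 1.97-fold lower after doxorubicin (-0.97 ± 0.18; adjusted p = 0.00465). Treated Cfp1-/- cells thus held less Rrm2 than untreated WT cells in each replicate. Mcm10 (ENSMUSG00000026669, chr2:4910760-4933837, minus strand) stood at 6529 and 5459 in untreated and 4142 and 3531 in treated WT cells, and at 2942 and 2913 in untreated and 1933 and 1737 in treated Cfp1-/- cells. Untreated Cfp1-/- cells were below even the treated WT cells, with a difference of -1.01 ± 0.14 untreated (adjusted p = 0.000946) and -1.04 ± 0.14 treated (adjusted p = 0.00138).

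Chaf1b, the middle subunit of CAF-1 (chromosome 16), stood at 1839 and 1905 in untreated and 1263 and 1448 in treated WT cells, and at 954 and 1105 in untreated and 914 and 717 in treated Cfp1-/- cells. It was lower in Cfp1-/- cells in both states (log2 -0.83 ± 0.16, adjusted p = 0.00404, and -0.71 ± 0.16, adjusted p = 0.0122). The large subunit gene Chaf1a passed the test in treated cells (-0.61 ± 0.12) and not in untreated cells (-0.09 ± 0.12). Gins3 (chromosome 8) stood at 721 and 604 in untreated and 726 and 884 in treated WT cells, and at 361 and 401 in untreated and 359 and 390.4 in treated Cfp1-/- cells, well below WT in both states (-0.77 ± 0.18 and -1.08 ± 0.18, beside chromosome medians of -0.23 and -0.25).

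Of the helicase genes, Mcm2, Mcm3, Mcm6 and Mcm7 were lower in Cfp1-/- cells in both states, while Mcm4 and Mcm5 did not pass in either. Mcm3 was lower by 0.70 untreated and 0.91 treated on the log2 scale (adjusted p = 0.0026 and 0.00127), and Mcm2 by 0.66 and 0.72. Mcm7, which did not pass with doxorubicin in either line, differed between them by -0.64 ± 0.15 untreated (adjusted p = 0.00963). Pcna was lower by 0.60 untreated and 0.96 treated (adjusted p = 0.0193 and 0.00358). Cdc6 was level between the untreated lines (log2 -0.00095 ± 0.13) and lower in treated Cfp1-/- cells (-0.49 ± 0.13; adjusted p = 0.025, 0.0525 without the damaged run). Pola1 was lower in both states (-0.58 ± 0.17 and -0.79 ± 0.17, the latter -0.50 without the damaged run), and Pola2 in treated cells (-0.81 ± 0.19; -0.54, adjusted p = 0.012, without it).

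Rfc4, a small subunit of the clamp loader (ENSMUSG00000022881, chr16:23114016-23127810, minus strand), was the member called higher in Cfp1-/- cells in both states. It stood at 1352 and 1331 in untreated and 791 and 813 in treated WT cells, and at 2139.7 and 2525 in untreated and 1354 and 1248 in treated Cfp1-/- cells. Cfp1-/- libraries were above WT ones at each state, 1.77-fold untreated (log2 0.83 ± 0.13; adjusted p = 0.00179) and 1.65-fold treated (adjusted p = 0.00516), so that treated Cfp1-/- cells held about the level of untreated WT cells. The median of 477 genes on its chromosome was -0.07 in both states. Its partners Rfc3 and Rfc5 were lower in Cfp1-/- cells (-0.68 ± 0.18 and -0.63 ± 0.13 untreated) and Rfc1 and Rfc2 did not pass. Lig1 was higher in untreated Cfp1-/- cells (0.58 ± 0.13; adjusted p = 0.0072), a value next to the median of 0.53 for its chromosome 7.

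A list of 66 other replication and nucleotide genes was read beside the members. In WT cells 29 of the 66 fell and 8 rose (median -0.36), and in Cfp1-/- cells 30 fell and 8 rose (median -0.34). Over all genes tested, 21.8% fell and 26.5% rose in WT cells, and 21% fell and 27.8% rose in Cfp1-/- cells. No gene of the list passed the test of the difference, in which 0 of the 66 were below an unadjusted p of 0.05. The largest falls in WT cells were those of Asf1a, a histone chaperone that hands histones to CAF-1, Ppat, which opens purine synthesis, and Hells, a chromatin remodeler. Asf1a went from 2469 and 2626 to 699.5 and 939 in WT cells, a 3.01-fold fall, and from 1396 and 1562 to 684 and 609 in Cfp1-/- cells. Ppat went from 9793 and 9468 to 3018 and 3333 and from 7224 and 8051 to 3342 and 2556. Hells, on chromosome 19, went from 32838 and 31133 to 11388 and 11372 and from 24986 and 25785 to 7175 and 8539 (log2 -1.65 ± 0.13 in Cfp1-/- cells; -1.34 without the damaged run). None of these groups overlapped.

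The largest rises on that list in WT cells were those of Pold4, the smallest subunit of polymerase delta, Rrm2b, the p53-induced small subunit of ribonucleotide reductase, and Impdh1, an enzyme of guanine nucleotide synthesis. Rrm2b stood at 274 and 205 in untreated and 465 and 445 in treated WT cells, and at 300.4 and 330.4 in untreated and 719 and 695 in treated Cfp1-/- cells. It rose 1.96-fold in WT (adjusted p = 0.00226) and 2.31-fold in Cfp1-/- cells (adjusted p = 0.000615), so both small subunit genes of the enzyme rose while the large subunit gene fell (Rrm1 was not called in either line with total counts, adjusted p = 0.121 in WT and 0.263 in Cfp1-/- cells). Pold4 was scarce and rose from 34 and 34.4 to 78.6 and 82.4 in WT and from 44.5 and 42.3 to 95 and 119 in Cfp1-/- cells. Impdh1 rose from 616 and 813 to 1292 and 1253 and from 743 and 659 to 988 and 1220.4. For comparison, of 22 genes of G2 and mitosis 17 fell in WT cells (median -0.83) and 21 in Cfp1-/- cells (median -0.85), and none rose in either line. Of all genes tested, 21.8% fell and 26.5% rose in WT cells, and 21% fell and 27.8% rose in Cfp1-/- cells.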

How the data were processed

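Mouse ES cells of 4 groups (WT and Cfp1-/-, untreated or with doxorubicin) were profiled by strand-specific RNA-Seq, with 2 biological replicates per group and 2 technical runs each. The deposited raw counts were made by the authors from reads mapped to NCBIM37 (mm9) with STAR (version 2.2.1 in the submitters' processing notes) and counted with HTSeq on the sense strand, in union mode, over exons of Ensembl genes. The deposited normalized counts are a signal that the authors obtained by summing the technical runs and dividing by DESeq size factors. Files of signal tracks were not used here.

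Raw counts were summed over technical runs and tested with edgeR 4.0.16 (R 4.3.3; filterByExpr, TMM, 1 coefficient per group, quasi-likelihood F-test), with Benjamini-Hochberg adjustment over 15758 genes and a call at an adjusted p under 0.05. The SE of a log2 fold change is its size divided by the square root of F. Whether replicates were separate cultures is not given in the sources used here, and p-values measure the spread between these samples. Counts give precision by depth, and with 2 samples per group the dispersion rests on all 8 (common dispersion 0.0304). Same-numbered replicates deviated together from their group means in all 6 pairs of groups (correlations 0.140 to 0.451), and were treated as paired in an alternative fit. Values per replicate are deposited normalized counts, and levels per kb use union exon lengths of the GENCODE annotation of the same build. Symbols were matched to Ensembl identifiers through a name table, Ticrr through its older name. The members, lists and tests were chosen with earlier results of these data known. Values in every replicate are given for the 3 members of largest change in each direction per comparison among those called, the highest and lowest level, the best known member of each role, and members in the region of lost counts. Cdc7 was named besides these after its values were seen, as Dbf4's partner. On the second list, the 3 largest changes in each direction in WT cells were given. Cad, Dhodh and Ticrr were named outside these rules, as were the purine enzymes, a group picked after its values were seen. Alternatives were other scalings, DESeq2 1.42.0, no filter, the replicate block, other choices of runs and groups, each replicate left out, and a promoter window of 150 bases before the start.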

Additional observations from a re-analysis of the deposited data

How the results depend on the processing

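The counts of members called lower in the responses (25 in WT, 29 in Cfp1-/- cells) and between the lines (18 untreated, 20 treated) stayed within 1.5 times under DESeq2's size factors, DESeq2's Wald test, no filter on low counts, the replicate block, the first technical runs alone, the fit without the damaged run and the fit of only the groups compared. With total counts they were 7, 15, 8 and 16, and those called higher 6, 3, 4 and 4, as the median of all genes moved up by that scaling. With the stricter call of at least 2.5-fold and 200 normalized counts, 1, 1, 0 and 0 were lower and 0 higher in each. Leaving out each replicate gave 16 to 25 lower and 0 to 1 higher in WT, 20 to 29 lower and 0 to 1 higher in Cfp1-/- cells, 6 to 18 lower and 2 to 2 higher between untreated lines, and 11 to 21 lower and 1 to 1 higher between treated lines. The 16 arose without replicate 2 of untreated WT cells. For the treated lines, members called higher were 4 with the replicate block, 4 without the damaged run, 4 with both, and 4 with the first runs alone. In the same order, 5795, 4418, 6127 and 4072 of all genes were called in either direction, against 4074 otherwise. The cause was not tested. Restricting the members to chromosomes with a median within 0.2 of 0, chosen after seeing the data, left 1 higher in untreated cells. The share of all genes on those chromosomes was not counted. The replicate block changed no other count by over 1.5 times, lost no call and added 1, 1, 4 and 8 members in the 4 comparisons. All genes called also rose with it, from 7607, 7692, 5362 and 4074 to 8807, 8983, 6870 and 5795. The difference of the responses gave 0 members under every alternative run. Signs were followed through every alternative for a part of the named genes, and none of these that was called changed sign. Others, such as Cdc7, Gart, Cad and Ticrr, were not followed in this way. With total counts no called member changed sign in the responses or between the lines. The level order kept Mcm3 highest and Tk1 lowest, and the E2F share was 35.1% in either window. The lowest raw count of any member in a library was 331 (Tk1), so depth limits the scarce genes named from the wider list, such as Pold4, more than the members.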

Other observations

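The second list holds 10 enzymes of purine synthesis, a group picked out after its values were seen. Ppat, Gart, Pfas, Paics, Adsl and Atic build inosine monophosphate, and Impdh1, Impdh2, Gmps and Adss turn it into guanine and adenine nucleotides. In WT cells 9 of the 10 fell with doxorubicin and Impdh1 rose (median log2 fold change -0.70), and in Cfp1-/- cells 7 fell and Impdh1 rose (median -0.44). Of all genes tested, 21.8% fell in WT and 21% in Cfp1-/- cells. With total counts 5 and 2 of the 10 enzymes were called lower. Gart went from 13272 and 14373 normalized counts in untreated to 7495 and 8406 in treated WT cells, and Gmps from 11758 and 13164 to 6518 and 7188. In Cfp1-/- cells Gart went from 7579.8 and 8519 to 5269 and 5038 and Gmps from 6478 and 6790.4 to 4798 and 4344. None passed the test of the difference between the responses. Cad, which opens pyrimidine synthesis, rose in both lines (0.82 ± 0.15 in WT, adjusted p = 0.00171, and 0.75 ± 0.15 in Cfp1-/- cells, adjusted p = 0.00292), while Dhodh, a later step of the same route, fell (-1.20 ± 0.16 and -1.08 ± 0.16). Ticrr, which helps origins fire (chromosome 7), was 2.91-fold higher in untreated Cfp1-/- than in untreated WT cells (adjusted p = 0.00264), with 3545 and 2699 normalized counts in WT and 10974 and 6831 in Cfp1-/- cells, beside a median of 0.53 on its chromosome.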
